A study of Mus musculus with 6 samples.

Results

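The 10 genes described here encode 9 apolipoproteins, the protein components of plasma lipoproteins (Apoa1, Apoa2, Apoa4, Apoa5, Apob, Apoc1, Apoc3, Apoe and Apom), and Mttp, the transfer protein that loads lipid onto nascent particles. They were taken by symbol from the 55487 genes of the deposited tables, and all 10 of them were among the 13296 genes with enough reads to be tested. Messenger RNA was measured by sequencing in cultured primary hepatocytes that received no treatment, from Alb/MDA-9 mice and from WT littermates, with 3 libraries in each group. Alb/MDA-9 mice are heterozygous for human MDA-9/SDCBP (syntenin, a membrane-associated scaffold protein), tagged with HA at the C terminus and driven by the core albumin promoter joined to its upstream enhancer, which is active in hepatocytes. WT mice carry no transgene. Animals of both groups were of B6CBAF1 background and ate regular chow. The labels number the libraries 1 to 3 in each group without saying that they came from separate animals or cultures, and the p-values below therefore reflect only how far these libraries differ, which may be technical.

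Libraries held 16756725 to 19046739 gene-assigned reads in Alb/MDA-9 and 16403918 to 18967611 in WT, and each of the 10 genes had 449 reads or more in every library. The first principal component (55.5% of the variance) separated the genotypes, while the second (17.0%) set Alb/MDA-9 3 against the rest. The labels call the cells hepatocytes, and the albumin gene Alb, a defining marker, had 55090 to 70170 CPM (reads per 1000000 gene-assigned reads, TMM-scaled) in Alb/MDA-9 and 54048 to 58379 CPM in WT. The 10 hepatocyte markers summed to 81870 to 97470 CPM in Alb/MDA-9 and 77810 to 81160 CPM in WT, with 1 higher and 2 lower in Alb/MDA-9 by the test used below. Markers of other liver cells were also read. The 12 Kupffer cell and macrophage markers summed to 242 to 396 CPM in Alb/MDA-9, against 419 to 431 CPM in WT, 9 of them lower in Alb/MDA-9, and none was at 0. Most of this sum was Cd68, with 322, 284 and 137 CPM in Alb/MDA-9, against 262 to 284 CPM in WT, which did not pass. The 10 stellate cell and fibroblast markers summed to 196 to 265 CPM in Alb/MDA-9, against 297 to 317 CPM in WT, with 6 lower. The largest part was Reln, with 168, 146 and 101 CPM in Alb/MDA-9, against 143 to 156 CPM in WT, which did not pass. The 9 endothelial markers summed to 197 to 218 CPM in Alb/MDA-9, against 255 to 280 CPM in WT, with 4 lower. The stellate count was 2 without WT 1 and 3 without WT 2 or WT 3. The cholangiocyte markers summed to 252 to 360 CPM in Alb/MDA-9, most of it Spp1, and to 52.8 to 60.9 CPM in WT, with 3 of 5 tested markers higher and 1 lower, and Cftr was at 0 reads. The part of other cells in the results below was not tested. In bulk libraries fewer cells of a type and less RNA per cell cannot be told apart, and neither can segments of a parental strain shared by a group and an effect of the transgene. The transgene is human and is not among the mouse genes counted, so the genotype labels were not checked by it.

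Hepatocytes build very-low-density lipoprotein around a single molecule of apolipoprotein B, to which the microsomal triglyceride transfer protein encoded by Mttp adds triglyceride in the endoplasmic reticulum. High-density lipoprotein forms when apolipoprotein A-I accepts phospholipid and cholesterol from cells. The small exchangeable apolipoproteins then move between particles and set how lipases and receptors act on them, with apolipoprotein E as the ligand for uptake of remnants by the liver.

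Of the 10 genes, Apoa4 and Apob rose and Mttp fell in Alb/MDA-9, and the other 7 did not pass the test (quasi-likelihood test of edgeR, with p adjusted by Benjamini-Hochberg over all genes tested and a threshold of 0.05). Apoa4 was 1.61 times its WT level, Apob 1.28 times and Mttp 0.833 times. Over all genes tested 14.4% passed, 7.35% higher and 7.09% lower, with 977 genes higher and 943 lower. The share among the 10 genes, 3 of 10, rests on few genes. The median log2 change was 0.07 over the 10 genes and -0.0015 over all genes tested. Of the 10, all but Apoa5 and Apom had a mean of at least 100 CPM in WT. Of the 1751 tested genes at that level 19.9% passed, 255 higher and 94 lower, with a median log2 change of 0.05. The libraries of both genotypes did not overlap for 4 of the 10 genes (3 higher and 1 lower), against 33.6% of all genes tested. Without WT 2 only Apoa4 passed, since the adjusted p was 0.0718 for Apob and 0.0629 for Mttp there. Scaling by library totals alone put the median log2 change of all genes at -0.11 and turned the split of all genes into 525 higher and 1622 lower.

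**Figure D1:**
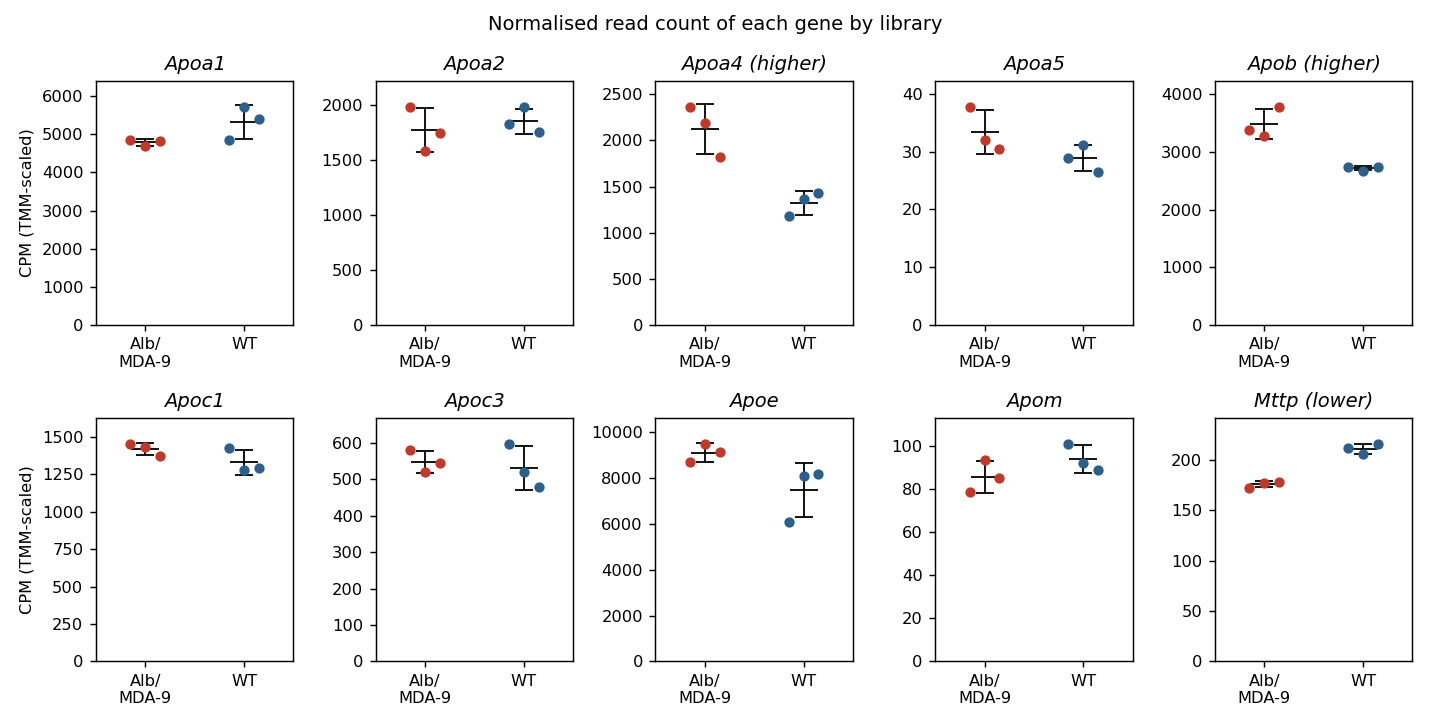
Normalised read count (CPM, TMM-scaled, axes from 0) of each of the 10 genes, with the 3 Alb/MDA-9 libraries left and the 3 WT libraries right in each panel; points are libraries 1 to 3 from left to right, and bars are the mean and SD. The Alb/MDA-9 points lie above all WT points for Apoa4, Apob and Apoe and below all of them for Mttp.

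**Figure D2:**
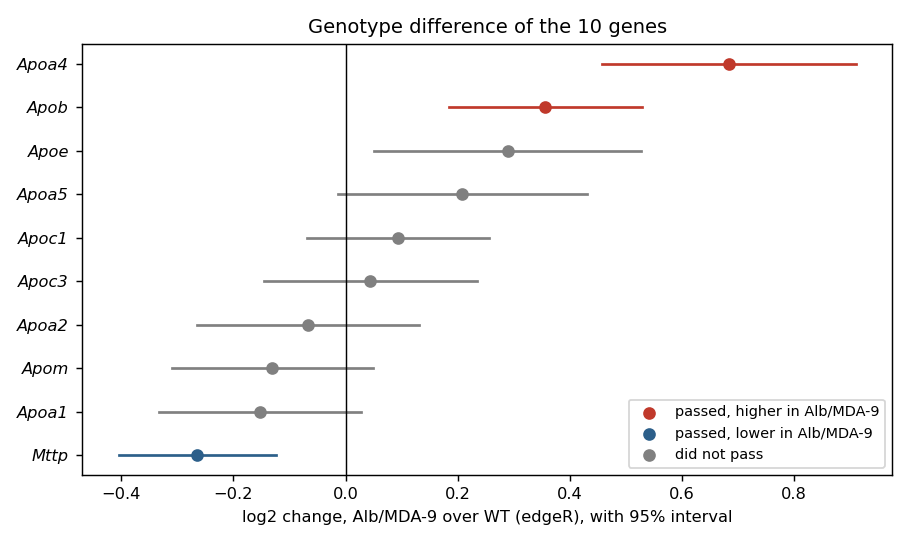
Log2 change of each gene, Alb/MDA-9 over WT, from the edgeR model (points) with its 95% interval for that gene alone (lines). The intervals of Apoa4, Apob, Apoe and Mttp leave out 0, and after adjustment over all genes Apoa4, Apob and Mttp passed.

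Apob (ENSMUSG00000020609, chromosome 12, 7977648 to 8016835 on GRCm38) encodes the structural protein of very-low-density lipoprotein. It had 3379, 3282 and 3778 CPM in Alb/MDA-9 libraries 1, 2 and 3, against 2737, 2673 and 2745 CPM in WT libraries 1, 2 and 3. Every Alb/MDA-9 library was above every WT library, and Alb/MDA-9 3 was the highest. The means were 3480 ± 263 CPM in Alb/MDA-9, against 2718 ± 39.5 CPM in WT (SD, n = 3), and the log2 change was 0.36 with an SE of 0.08 (edgeR adjusted p = 0.00999). The spread between libraries was 7.55% of the mean in Alb/MDA-9 and 1.45% in WT, beside medians of 5.87% in Alb/MDA-9 and 4.37% in WT over 1751 genes of at least 100 CPM in WT. With library totals alone the log2 change was 0.25 and Apob did not pass (adjusted p = 0.0579).

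Mttp (ENSMUSG00000028158, chromosome 3, 138089854 to 138144968) moved the other way. It had 172, 177 and 178 CPM in the Alb/MDA-9 libraries, against 212, 206 and 216 CPM in the WT libraries. The groups did not overlap and each was tight, with 176 ± 2.99 CPM in Alb/MDA-9, against 211 ± 5.06 CPM in WT (SD, n = 3), and the log2 change was -0.26 with an SE of 0.06 (edgeR adjusted p = 0.0168). The direction was the same under all 15 alternative settings, between -0.37 and -0.25, but the call ended without Alb/MDA-9 2 (adjusted p = 0.0575), without WT 2 (0.0629) and without WT 3 (0.0770).

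The ratio of Apob to Mttp reads within a library does not depend on scaling between libraries. It was 19.6, 18.5 and 21.3 in Alb/MDA-9 and 12.9, 13.0 and 12.7 in WT, so every Alb/MDA-9 library was above every WT library. The means of 19.8 ± 1.39 in Alb/MDA-9 and 12.9 ± 0.146 in WT (SD, n = 3) differed by 1.54-fold, with a two-sided exact permutation p of 0.1, the smallest that 3 against 3 libraries can give. This ratio and the 4 other ratios below were chosen after the values were seen, and adjusted over the 5 ratios the exact permutation p was 0.167.

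The promoters of Apob and Mttp are shown because these functional partners moved in opposite directions, and those of Apoa4 and Apoa1 because these neighbours on chromosome 9 are set against each other below. Each is 300 bases of RefSeq (GRCm38.p6), 5′ to 3′ on the strand of the gene, from 250 bases before the listed start to 50 after it, with motif matches in capitals. The regions are chr12:7977427-7977726 (plus strand), chr3:138143369-138143668 (minus strand), chr9:46240594-46240893 (plus strand) and chr9:46228380-46228679 (plus strand).
Apob: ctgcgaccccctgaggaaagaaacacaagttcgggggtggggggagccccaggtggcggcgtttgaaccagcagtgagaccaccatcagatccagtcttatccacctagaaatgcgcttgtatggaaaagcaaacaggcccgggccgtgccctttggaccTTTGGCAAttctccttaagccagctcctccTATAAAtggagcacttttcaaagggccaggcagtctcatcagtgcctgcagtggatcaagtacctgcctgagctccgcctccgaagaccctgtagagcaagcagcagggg
Mttp: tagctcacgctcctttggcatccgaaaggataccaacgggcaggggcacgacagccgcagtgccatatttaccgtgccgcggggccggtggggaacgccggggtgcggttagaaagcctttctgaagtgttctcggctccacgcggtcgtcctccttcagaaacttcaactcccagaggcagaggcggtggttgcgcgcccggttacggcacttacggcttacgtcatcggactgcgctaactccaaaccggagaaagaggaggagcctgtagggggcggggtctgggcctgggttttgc
Apoa4: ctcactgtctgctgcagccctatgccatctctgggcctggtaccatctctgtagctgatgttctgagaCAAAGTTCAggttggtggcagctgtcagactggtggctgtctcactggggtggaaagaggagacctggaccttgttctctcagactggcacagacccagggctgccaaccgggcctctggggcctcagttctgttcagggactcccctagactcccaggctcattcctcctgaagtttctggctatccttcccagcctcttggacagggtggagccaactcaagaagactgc
Apoa1: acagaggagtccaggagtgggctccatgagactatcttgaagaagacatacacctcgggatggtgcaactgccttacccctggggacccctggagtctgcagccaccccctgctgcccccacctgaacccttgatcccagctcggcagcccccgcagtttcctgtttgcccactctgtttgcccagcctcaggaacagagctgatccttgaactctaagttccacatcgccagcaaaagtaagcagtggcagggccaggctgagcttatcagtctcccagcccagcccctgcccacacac
Among the motifs searched on both strands were TATAAA for the promoter box bound by TBP, CAAAGTNCA for the core of sites of the liver factor HNF4, AGGTCA for the unit that nuclear receptors bind, a longer response element of ROR and REV-ERB factors that holds the same 6 letters, TGTTTAC for FOXA factors and TTGCNNAA for C/EBP factors. The nuclear receptor unit was in none of the 8 promoters, so the longer element, which contains it, could not be in them either. Of all promoters 16.3% hold the unit and 0.219% the longer element. RefSeq promoters were matched for 8 of the 10 genes, all except Apoc1 and Apoc3. The Apob promoter held TATAAA 60 bases before the start and, on the opposite strand, TTGCNNAA 90 bases before it. These letters are found in 13.6% and 10.8% of all 32851 listed promoters. The Apoa4 promoter held CAAAGTNCA 182 bases before the start, as do 1.41% of promoters. The Mttp and Apoa1 windows held none of these letters. Only exact matches were sought, so a window without a match may still hold sites that differ from these letters. Among the other promoters, that of Apoa2 held TATAAA 212 bases before the start and the FOXA letters (3.65% of all promoters) 77 bases before it. That of Apoa5 held TATAAA 56 bases before the start. The RefSeq start lay 29 bases from the outermost GENCODE start for Apob, 50 for Apoa1, 148 for Apoa4 and 1550 for Mttp. The Mttp window also holds the annotated start of Trmt10a, on the opposite strand, at 138143448.

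Of 4 listed genes of the machinery that edits Apob mRNA, 3 fell in Alb/MDA-9. The cytidine deaminase encoded by Apobec1 converts a cytidine of the Apob transcript to uridine, which makes a stop codon and so the short protein apoB48, and in mice this takes place in liver as well as intestine. The other did not pass. Over all genes tested 7.09% passed as lower, and the median log2 change of the 4 genes was -0.34. The 4 genes are few and were listed with earlier results of these data known. The site is shown because these genes act on it. It lies in exon 26 of 29 at position 8008054 of chromosome 12 (GRCm38), in the CAA codon numbered 2179 from the start of the coding sequence. The GENCODE transcript reads as follows over chr12:8008045-8008073 (plus strand), with the edited C and the 11 bases of the mooring sequence, where the editing complex binds, in capitals.
Apob editing site: tacgcgataCaattTGATCAGTATAttaa
The mooring sequence occurred once in the longest Apob transcript and in 12 of 21951 protein-coding genes (0.0547%). Counts per gene do not show how much of the Apob mRNA was edited, and editing was not analysed here.

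Apobec1 (chromosome 6, 122577792 to 122602444) had 181, 176 and 158 CPM in Alb/MDA-9, against 217, 210 and 223 CPM in WT, and all Alb/MDA-9 libraries were below all WT libraries. Its log2 change was -0.34 (SE 0.07, edgeR adjusted p = 0.00872). A1cf, which encodes an RNA-binding cofactor of the deaminase, had 13.37, 14.035 and 14.089 CPM in Alb/MDA-9, against 20.5, 20.7 and 21.1 CPM in WT (log2 change -0.58, SE 0.10, edgeR adjusted p = 0.00219). Rbm47, which encodes another cofactor, had 43.7, 48.2 and 40.0 CPM in Alb/MDA-9, against 49.0, 58.3 and 59.5 CPM in WT (log2 change -0.34, SE 0.10, edgeR adjusted p = 0.0333). The groups of both cofactor genes did not overlap. The Rbm47 call ended without Alb/MDA-9 1, Alb/MDA-9 3, WT 2 or WT 3 (adjusted p 0.0565 to 0.138), whereas Apobec1 and A1cf passed under all 15 settings. Syncrip, an RNA-binding protein gene also linked to the editing complex, overlapped between groups at 86.2 to 99.5 CPM in Alb/MDA-9, against 81.6 to 94.7 CPM in WT (edgeR adjusted p = 0.590). Macrophages also express Apobec1, and 9 of 12 Kupffer cell and macrophage markers were lower in Alb/MDA-9, as given above. The part of macrophages in the Apobec1 values was not tested.

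**Figure D3:**
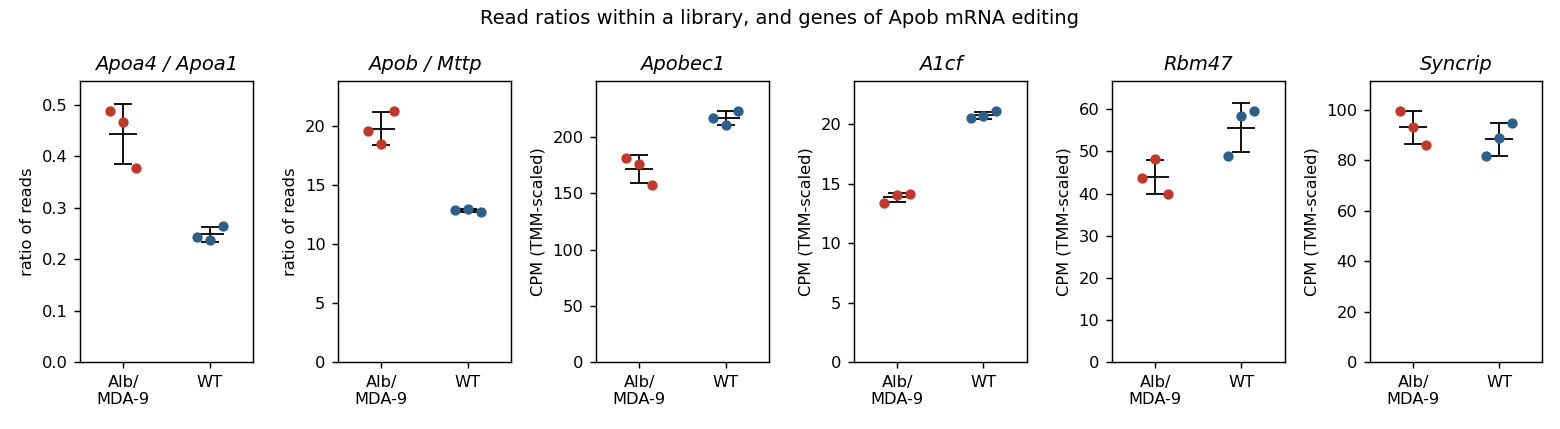
Ratio of reads within each library for Apoa4 to Apoa1 and Apob to Mttp, and CPM (TMM-scaled) of 4 genes linked to Apob mRNA editing, with Alb/MDA-9 left and WT right; points are libraries 1 to 3, bars the mean and SD, and axes start at 0. Both ratios lie higher, and Apobec1, A1cf and Rbm47 lower, in every Alb/MDA-9 library than in any WT library, and Syncrip overlaps.

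Apoa1, Apoc3, Apoa4 and Apoa5 lie in a cluster on chromosome 9, in which Apoa4 alone passed the test. Apoa4 (ENSMUSG00000032080, chromosome 9, 46240696 to 46243459) encodes an exchangeable apolipoprotein of triglyceride-rich particles that the mouse liver makes alongside the intestine. It had 2362, 2189 and 1823 CPM in Alb/MDA-9, against 1178, 1361 and 1430 CPM in WT. The lowest Alb/MDA-9 library, Alb/MDA-9 3, was still above the highest WT library. The means were 2125 ± 275 CPM in Alb/MDA-9, against 1323 ± 131 CPM in WT (SD, n = 3), and the log2 change was 0.68 with an SE of 0.10 (edgeR adjusted p = 0.000954), the largest change of the 10 genes. It passed under all 15 alternative settings, with log2 changes of 0.58 to 0.78.

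Apoa1 (ENSMUSG00000032083, 46228580 to 46230466), the main protein of high-density lipoprotein, had 4846, 4695 and 4822 CPM in Alb/MDA-9, against 4845, 5716 and 5401 CPM in WT. The groups overlapped through WT 1, and the log2 change was -0.15 (SE 0.08, edgeR adjusted p = 0.256), with a 95% interval of 0.794 to 1.02 for the ratio. It passed as lower with limma-voom and quality weights (adjusted p = 0.0489). Apoc3 (ENSMUSG00000032081, 46232933 to 46235636), an inhibitor of lipoprotein lipase, overlapped between groups, with 581, 520 and 546 CPM in Alb/MDA-9, against 598, 519 and 479 CPM in WT (ratio 1.03, 95% interval 0.904 to 1.18). Apoa5 (ENSMUSG00000032079, 46268633 to 46271919), which promotes the action of lipoprotein lipase, had 37.74, 31.97 and 30.47 CPM in Alb/MDA-9, against 28.98, 31.17 and 26.57 CPM in WT. Its groups overlapped too, with a ratio of 1.15 (95% interval 0.990 to 1.35, edgeR adjusted p = 0.208).

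Within a library, Apoa4 had 0.487, 0.466 and 0.378 reads per Apoa1 read in Alb/MDA-9 and 0.243, 0.238 and 0.265 in WT. The groups did not overlap, and the means of 0.444 ± 0.058 in Alb/MDA-9 and 0.249 ± 0.0142 in WT (SD, n = 3) differed by 1.79-fold (exact permutation p of 0.1, two-sided, the smallest possible, and 0.167 adjusted over the 5 ratios). Per Apoa1 read, Apoc3 averaged 0.115 reads in Alb/MDA-9 and 0.101 in WT, with overlapping groups (exact permutation p of 0.4, adjusted 0.5). Apoa5 averaged 0.00697 reads per Apoa1 read in Alb/MDA-9 and 0.00545 in WT without overlap (exact permutation p of 0.1, adjusted 0.167).

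Among the other genes of high-density lipoprotein, Apoa2 and Apom did not pass. Apoa2 (ENSMUSG00000005681, chromosome 1, 171225054 to 171226379), the second protein of these particles, had 1977, 1578 and 1745 CPM in Alb/MDA-9, against 1822, 1975 and 1754 CPM in WT. The highest and the lowest library were both Alb/MDA-9 libraries (ratio 0.955, 95% interval 0.832 to 1.10, edgeR adjusted p = 0.682). Apom (ENSMUSG00000024391, chromosome 17, 35128997 to 35132050), which carries sphingosine-1-phosphate, had 79.0, 93.7 and 85.1 CPM in Alb/MDA-9, against 101, 92.1 and 88.8 CPM in WT. The groups overlapped, with a ratio of 0.914 (95% interval 0.807 to 1.03, edgeR adjusted p = 0.332).

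Apoe and Apoc1 lie next to each other on chromosome 7. Apoe (ENSMUSG00000002985, 19696109 to 19699188) had 8702, 9496 and 9149 CPM in Alb/MDA-9, against 6103, 8085 and 8194 CPM in WT. All Alb/MDA-9 libraries were above all WT libraries, but WT 1 was far below the other WT libraries, and the spread in WT was 15.8% of the mean, the widest of the 10 genes. The log2 change was 0.29 (SE 0.11) and did not pass (edgeR adjusted p = 0.104, ratio 1.22, 95% interval 1.04 to 1.44). It passed with DESeq2 (adjusted p = 0.0275) and without a low-count filter (0.00299), and without WT 1 the log2 change was 0.16 (adjusted p = 0.262). Macrophages and stellate cells express Apoe as well. Of their markers 9 of 12 and 6 of 10, in that order, were lower in Alb/MDA-9. The stellate count was 2 or 3 when a WT library was left out. The part of these cells in the Apoe values was not tested. Apoc1 (ENSMUSG00000040564, 19689481 to 19692660), a small apolipoprotein that slows remnant uptake, had 1455, 1433 and 1372 CPM in Alb/MDA-9, against 1426, 1277 and 1291 CPM in WT. Its groups overlapped through WT 1 (ratio 1.07, 95% interval 0.953 to 1.19, edgeR adjusted p = 0.453). Apoc1 had 0.156 ± 0.00967 reads per Apoe read in Alb/MDA-9 and 0.183 ± 0.0438 in WT (SD, n = 3; exact permutation p of 0.5, adjusted 0.5). WT 1 stood at 0.234, against 0.158 in each of the other WT libraries. WT 1 also had the most unmapped reads, 10.4% against 9.22% to 9.55% in the other libraries. Its reads that lay in no gene were 6.01%, against 4.90% to 5.275% in the others. Whether this bears on the Apoe values was not tested.

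Levels of different genes were compared per kilobase of exon. In Alb/MDA-9 the order from the highest was Apoe, Apoa1, Apoa2, Apoc1, Apoa4, Apoc3, Apob, Apom, Mttp and Apoa5, and no neighbours in that order overlapped between libraries. In WT it was Apoa1, Apoe, Apoa2, Apoc1, Apoa4, Apoc3, Apob, Apom, Mttp and Apoa5, and only Apoe and Apoa2 overlapped among neighbours. Apoe had 4264 ± 186 CPM per kb in Alb/MDA-9 and 3490 ± 551 in WT, and Apoa1 3874 ± 65.5 in Alb/MDA-9 and 4305 ± 356 in WT (SD, n = 3). Apoa5, at the foot of the order, had 13.2 ± 1.52 CPM per kb in Alb/MDA-9 and 11.5 ± 0.913 in WT. Apob, whose exons cover 13934 bases, had 250 ± 18.9 CPM per kb in Alb/MDA-9 and 195 ± 2.84 in WT, and Mttp 28.3 ± 0.481 in Alb/MDA-9 and 34.0 ± 0.815 in WT. Set by coding length instead, the WT order kept 6 of 10 places, with Apoe above Apoa1 and Apoc3 above Apoa4, and the Alb/MDA-9 order kept all 10. The 10 genes together held 2.27% ± 0.0552 of gene-assigned reads in Alb/MDA-9 and 2.16% ± 0.149 in WT (SD, n = 3). The libraries ranged from 2.23% to 2.33% in Alb/MDA-9 and from 1.99% to 2.26% in WT, so that the groups overlapped in this unscaled share. With TMM scaling the 10 genes summed to 23500 to 23590 CPM in Alb/MDA-9, against 19050 to 21940 CPM in WT, without overlap.

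**Figure D4:**
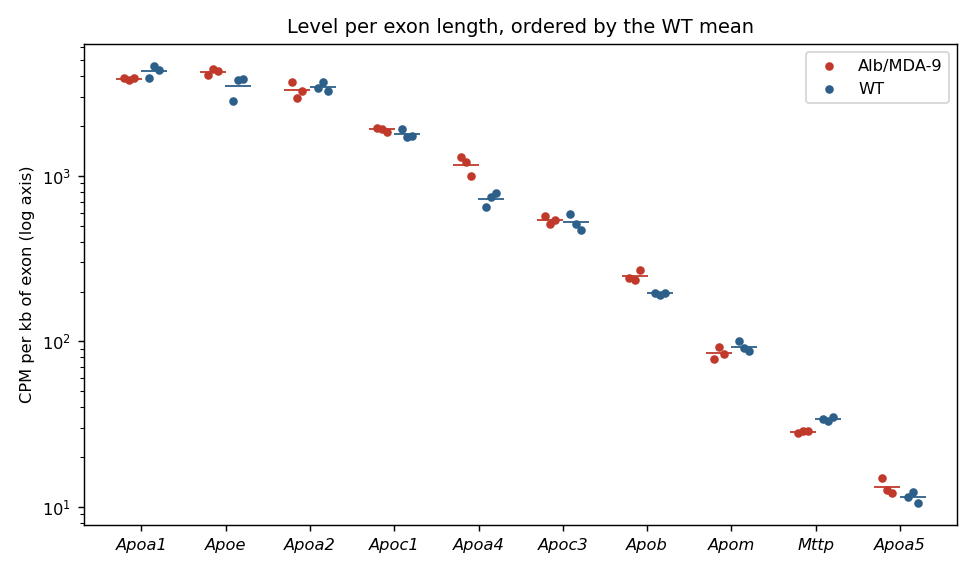
Level of each gene in CPM per kb of annotated exon on a log axis, Alb/MDA-9 left and WT right for each gene, with points for the 3 libraries and a bar for the mean; genes are ordered by their WT mean. The levels span from 4264 (Apoe in Alb/MDA-9) and 4305 (Apoa1 in WT) to 13.2 (Alb/MDA-9) and 11.5 (WT) for Apoa5, and Apoa4 shows the widest gap between genotypes.

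Of 7 other apolipoprotein genes listed, 5 were tested and 3 rose, namely Apon, Apof and Clu, and the median log2 change was 0.37. This share of 60.0%, against 7.35% of all genes tested that passed as higher, rests on few genes. They were listed with earlier results of these data known. Of the 1751 tested genes of at least 100 CPM in WT, as Apof and Clu were, 255 passed as higher. Apon had 42.5, 35.6 and 42.9 CPM in Alb/MDA-9, against 26.1, 23.8 and 26.5 CPM in WT (log2 change 0.66, SE 0.10, edgeR adjusted p = 0.000656). Apof, its neighbour on chromosome 10, which in humans inhibits lipid transfer between particles, had 177, 172 and 158 CPM in Alb/MDA-9, against 127, 125 and 125 CPM in WT (log2 change 0.43, SE 0.07, edgeR adjusted p = 0.00150). Clu, which encodes clusterin or apolipoprotein J, a secreted chaperone, had 9452, 9980 and 11248 CPM in Alb/MDA-9, against 7988, 7770 and 7966 CPM in WT (log2 change 0.37, SE 0.09, edgeR adjusted p = 0.0132). The groups did not overlap for any of these 3 genes, and the Clu call ended without WT 2 or WT 3 (adjusted p = 0.0866 and 0.0571) and with library totals (0.0619). Apoc4 (81.4 ± 8.49 CPM in Alb/MDA-9, against 89.4 ± 8.54 in WT) and Apoh (626 ± 57.7 and 721 ± 24.1 in the same order; SD, n = 3) did not pass. All Alb/MDA-9 libraries were below all WT libraries for Apoh. In this list 1 gene passed as lower with library totals, with limma-voom or without Alb/MDA-9 1. Apoc2, the activator of lipoprotein lipase, had 0 to 0.120 CPM in Alb/MDA-9, against 0 to 0.151 CPM in WT, at or below the level of 3 reads. The annotated gene Gm44805 covers 79.5% of the Apoc2 exon bases on the same strand, and reads over more than 1 gene are not assigned, so these values do not give the Apoc2 level. None of the 10 genes shares exon bases with another gene on its own strand.

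Of 16 partners in particle assembly and export from the endoplasmic reticulum, 1 rose and 2 fell (18.8% against 14.4% of all genes), and the median log2 change was -0.02. Tm6sf2, a membrane protein gene that promotes lipid loading of very-low-density lipoprotein, had 7.66 ± 0.936 CPM in Alb/MDA-9, against 11.6 ± 1.30 CPM in WT (SD, n = 3; log2 change -0.60, edgeR adjusted p = 0.0176). Sar1b, whose GTPase forms the vesicles that carry these particles, had 47.0 ± 3.59 CPM in Alb/MDA-9, against 57.3 ± 5.11 CPM in WT (log2 change -0.28, adjusted p = 0.0487). Cideb, a lipid droplet protein gene that aids lipid loading, had 52.7 ± 0.584 CPM in Alb/MDA-9, against 41.9 ± 2.87 CPM in WT (log2 change 0.33, adjusted p = 0.0129). P4hb, the partner subunit of Mttp, had 1523 to 1825 CPM in Alb/MDA-9, against 1382 to 1499 CPM in WT, with no overlap, and did not pass (adjusted p = 0.119). The count of 3 fell to 1 without Alb/MDA-9 2 or WT 1 and was 5 without Alb/MDA-9 3. The Tm6sf2 call ended without Alb/MDA-9 1, Alb/MDA-9 2 or WT 1, that of Sar1b without any single library but Alb/MDA-9 1 and WT 3, with DESeq2 (adjusted p = 0.0563) or with reads of either strand (0.0505), and that of Cideb without WT 3, with library totals or with reads of either strand.

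Of 12 lipase and remodelling genes (median log2 change -0.14) 1 fell (8.33% against 14.4% of all genes), namely Lpl, the lipoprotein lipase gene, with 2.82, 3.38 and 2.95 CPM in Alb/MDA-9, against 5.65, 7.59 and 6.45 CPM in WT (log2 change -1.11, SE 0.20, edgeR adjusted p = 0.00274). Its groups did not overlap. In liver Lpl is expressed mainly by cells other than hepatocytes, and their part in this fall was not tested. Lower in Alb/MDA-9 were 9 of 12 Kupffer cell and macrophage, 6 of 10 stellate and 4 of 9 endothelial markers. Of 5 tested cholangiocyte markers 3 were higher and 1 lower. The count of lipase and remodelling genes that passed was 2 without Alb/MDA-9 1, and 3 with library totals, with limma-voom or without a low-count filter. Of 12 receptor genes and their regulators (median log2 change 0.04), 0 passed with edgeR, against 14.4% of all genes, and 0 with DESeq2 or limma-voom. An unadjusted edgeR p under 0.05 was found for 0 of them, and 1 passed without a low-count filter. Of 4 exporter genes of high-density lipoprotein lipid (median log2 change -0.45), 0 passed with any of these tools, against the same 14.4% with edgeR. An unadjusted edgeR p under 0.05 was found for 2, and 1 passed on leaving out Alb/MDA-9 3 or the filter on low counts. The share of all genes under that unadjusted cut is not given here, so these counts have no background beside them.

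Of 20 transcription regulators with a known part in controlling apolipoprotein genes, 19 were tested, 2 rose and 3 fell (26.3% against 14.4% of all genes), and the median log2 change was 0.11. Nr1d1, which encodes the repressor REV-ERB alpha, had 7.85, 6.17 and 6.32 CPM in Alb/MDA-9, against 16.2, 14.5 and 11.7 CPM in WT (log2 change -1.06, SE 0.16, edgeR adjusted p = 0.000954). Nr1h4, which encodes the bile acid receptor FXR, had 38.0, 37.3 and 42.4 CPM in Alb/MDA-9, against 54.0, 53.3 and 50.6 CPM in WT (log2 change -0.42, SE 0.08, adjusted p = 0.00363). Nr5a2, the LRH-1 gene, had 29.5, 26.5 and 25.6 CPM in Alb/MDA-9, against 17.5, 22.2 and 22.4 CPM in WT (log2 change 0.39, SE 0.11, adjusted p = 0.0372). The groups of these genes did not overlap. Rxra, the gene of a nuclear receptor that pairs with many others, is named after its values were seen. It fell to 83.6 ± 4.41 CPM in Alb/MDA-9, against 98.8 ± 0.372 CPM in WT (SD, n = 3; log2 change -0.24, edgeR adjusted p = 0.0356). Hnf4a, the main hepatocyte activator of these genes, had 480 to 509 CPM in Alb/MDA-9, against 516 to 550 CPM in WT, without overlap, and did not pass (adjusted p = 0.350). The count of 5 was 3 without Alb/MDA-9 2 or any single WT library. The Nr5a2 call ended without any single library except Alb/MDA-9 3, with library totals (adjusted p = 0.09998) and with upper-quartile factors (0.0536), and that of Rxra without Alb/MDA-9 2 or any WT library.

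**Figure D5:**
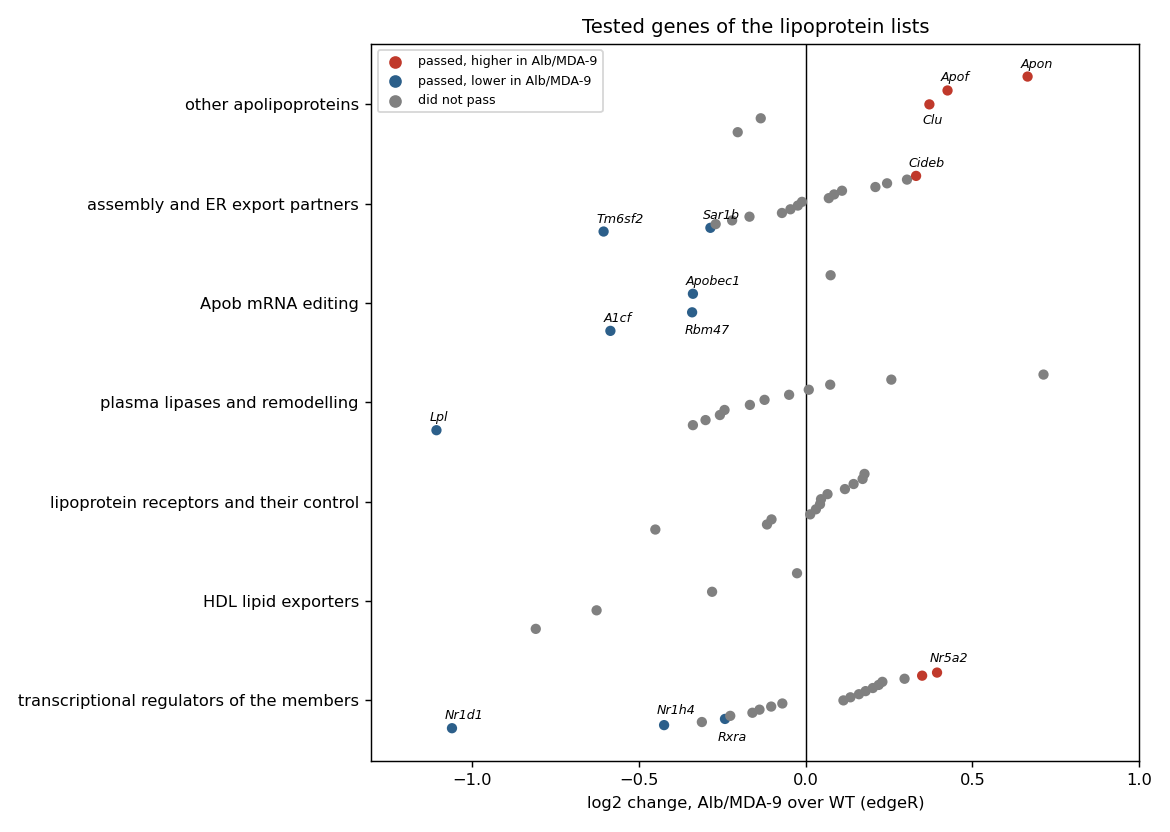
Log2 change (Alb/MDA-9 over WT, edgeR) of every tested gene in 7 lists of lipoprotein genes, 1 point per gene, ordered by value within each list; red and blue points passed as higher and lower in Alb/MDA-9, grey points did not pass, and most points that passed carry their symbol. Among the editing genes 3 of 4 are blue, among the other apolipoproteins 3 of 5 are red, and the receptor list holds grey points only.

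Within 100 kb of the 10 genes lay 81 other annotated genes, of which 38 were tested, 4 rose and 3 fell (18.4% against 14.4% of all genes). On chromosome 9, Gm10680 rose. It is annotated on the strand opposite to Apoa4 and lies within 46242621 to 46243529, over its end. It had 40, 36 and 17 reads in Alb/MDA-9 and 9, 8 and 16 in WT, while Apoa4 had 42746, 37593 and 30277 reads in Alb/MDA-9 and 23323, 26557 and 24173 in WT. Per Apoa4 read of the same library, Gm10680 overlapped between groups, with Alb/MDA-9 3 below WT 3. Whether its reads came from Apoa4 transcripts and were set on the wrong strand was not tested. The log2 change of Gm10680 was 1.58 (SE 0.44, edgeR adjusted p = 0.0320), and the call ended without Alb/MDA-9 1, Alb/MDA-9 2, WT 1 or WT 2. Next to Apoa2, the nuclear receptor gene Nr1i3 (0.244 ± 0.269 CPM in Alb/MDA-9, against 1.69 ± 0.489 in WT), the immune receptor subunit gene Fcer1g (3.38 ± 0.256 and 5.996 ± 1.48) and the protease gene Adamts4 (3.98 ± 0.938 and 6.91 ± 0.167) fell, values being in the same order of groups (SD, n = 3). Relb, an NF-kB subunit gene near Apoe, rose with 33.0 ± 3.13 CPM in Alb/MDA-9, against 23.0 ± 1.21 CPM in WT. Clic1 and D17H6S53E near Apom rose, with 260 ± 14.96 and 17.1 ± 1.05 CPM in Alb/MDA-9, against 184 ± 6.85 and 12.8 ± 0.290 CPM in WT. The calls of Fcer1g, Adamts4 and D17H6S53E ended without Alb/MDA-9 2 or without WT 1, among others. No tested gene lay within 100 kb of Apob, and none of the 4 near Mttp passed.

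The gene with the most alike pattern was sought for each of the 10 among 8507 other genes of at least 10 CPM, by the root-mean-square difference of log2 CPM over the 6 libraries after centring. It was Tbl1xr1 for Apoa4 (difference 0.0302), Sbno2 for Apob (0.0238), Hfe for Mttp (0.0188), Gtf2f1 for Apoe (0.0296), Atg14 for Apoa1 (0.0269), Marc2 for Apoa2 (0.0244), Bola2 for Apoc1 (0.0181), Gstm5 for Apoc3 (0.0294), Slc38a6 for Apoa5 (0.0186) and Abl2 for Apom (0.0331). Gtf2f1 had 167, 176 and 166 CPM in Alb/MDA-9, against 114, 149 and 157 CPM in WT, low in WT 1 as Apoe was. None of the 10 was the nearest gene of another, which says little with 8507 candidates for each. Each nearest gene was picked for its likeness over 6 values, so small differences and shared values follow from the choice.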

How the data were processed

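Per the file layout and the submitters' processing notes, which list the builds mm10 and GRCm38 and, among tools, edgeR 3.18.1, STAR 2.7.9a, Trim Galore 0.6.6 and FastQC 0.11.2, the authors deposited raw read counts per gene and library. Not given in the sources used here are the annotation and the options. The libraries came from a TruSeq RNA kit, per the labels' protocols. Only reads with a single position and gene are counted, so near-identical copies lose reads, but transcripts at least 90% identical over 100 bases to those of the 10 genes came only from genes over the same bases.

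Counts of the reverse-strand column were used, which held 96.9% to 97.2% of stranded gene reads. The 4 rows without a gene, 34.2% to 37.5% of all reads, were left out. Names came from GENCODE M21, which held 55227 of 55487 identifiers. Genes were filtered with filterByExpr (minimum count 10), scaled by TMM and tested in R 4.3.3 with edgeR 4.0.16 (quasi-likelihood, genotype as the only term), a procedure tested on simulated data. DESeq2 1.42.0 and limma 3.58.1 were alternatives. A gene with 0 reads could stand at up to 0.166 to 0.181 CPM in Alb/MDA-9 and 0.152 to 0.178 CPM in WT, the level of 3 reads; such limits cover counting error only. Intervals of 95% are of single genes and not adjusted.

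The 10 genes and all lists were chosen with earlier results of these data known. In each list the text names up to 3 genes of the largest change among those past the threshold with at least 1 CPM, every neighbour that passed, and the gene of the most alike profile (log2 of CPM plus 0.1). Some genes of the lists are not reported here. Replicates of a group differed beyond sampling noise. Same-numbered libraries did not deviate together (correlations of deviations -0.0408, -8.73e-05 and -0.0619). With 3 libraries per group this cannot exclude a pairing, and the labels state none.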

Additional observations from a re-analysis of the deposited data

How the results depend on the processing

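The count of 3 genes that passed among the 10 was 1 to 3 when each library was left out in turn, lowest without WT 2. It was 2 with library totals, 3 with upper-quartile factors, RLE factors, the stricter filter (minimum count 50) or reads of either strand, and 4 with DESeq2, limma-voom or no filter. Over all genes the count was 1018 to 2386 without a library, against 1920 with all 6, and 1601 to 2596 under the other alternatives. The 15 genes of the 7 lists that passed became 23 without a low-count filter and 10 to 19 without a library. Set by coding length, 6 of 10 places of the WT order were kept. Apoa4 passed under all 15 alternatives, Apob under 13 and Mttp under 12. Apoc1 and Apoc3, which did not pass, had log2 changes of -0.01 and -0.06 with library totals and above 0 with TMM. With the replicate number as a block, 3 of the 10 genes passed, as did 13 list genes and 1601 of all genes. The block ended the calls of Nr5a2, Rxra and Gm10680 (adjusted p = 0.0625, 0.0663 and 0.0666), and 3 of the regulators passed. Each of the 10 genes had 449 reads or more in every library, and the tests rest on 3 libraries per group.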
